A study of Mus musculus with 2 samples.

Results

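The Egr genes (Egr1, Egr2, Egr3 and Egr4) encode 4 zinc-finger transcription factors of the early growth response family, and their accessible regions were described here in mouse cerebral cortex. They were chosen by name from the GENCODE M21 annotation, as 4 of 21938 protein-coding genes. Each was followed over its gene body and 50 kb on each side, called its window. DNase-seq, which marks DNA that the nuclease DNase I can cut, had been run on the left cerebral cortex of 2 female B6CASTF1/J mice, 36 days old. The strain is a first-generation hybrid of B6 and CAST mice, and the lists do not separate the alleles. The labels name no treatment. One library was made per mouse, here named replicate 1 and replicate 2 by the labels' numbers, and with a single group no test between conditions exists. The animals carry different numbers in the labels but share a donor entry. The tissue is a mixture of cells, and fewer cells with an open site and less accessibility per cell cannot be told apart.

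Egr genes are immediate early genes: neurons switch them on soon after synaptic activity or a growth factor signal, without new protein synthesis. The signal reaches their promoters through the kinases of the MAP kinase route, which act on serum response factor (SRF) and its ETS partners at CArG boxes, and through CREB at cAMP response elements (CRE). The Egr proteins bind GC-rich sites with their zinc fingers, and the corepressors Nab1 and Nab2 restrain Egr1, Egr2 and Egr3. Egr1, also called Zif268, is widely used as a marker of neuronal activity, Egr2, also called Krox20, is needed for hindbrain segments and for myelination by Schwann cells, Egr3 for muscle spindles, and Egr4 acts in the germ line and in neurons.

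The sequences below come from Egr2 and Egr4. Footprints are short stretches within accessible DNA that were cut less than their surroundings. The first sequence was chosen because a footprint reached into its CArG box. The others were chosen by position: stretches before a RefSeq start outside the gene's exons, and the highest region between genes in each window. Promoter windows are those of the RefSeq table on GRCm38, which is the mm10 build of the deposited lists. All are written 5′ to 3′ on the strand of the gene, and capitals mark bases under footprints of both mice. The first is the site just before the main start of Egr2, chr10:67537797-67537823 on the plus strand, which begins with a CArG box. The second is the 250 bases before the upstream RefSeq start of Egr2, chr10:67537316-67537565. The third is the 250 bases before the start of Egr4 on the minus strand, chr6:85513590-85513839. The fourth is a distal region of Egr2 between genes, chr10:67492161-67492360, and the fifth the region past the 3′ end of Egr4, chr6:85510561-85510780.
Egr2 site at the main start: ccatataTGGGCAGCGACGTCACGGGT
Egr2 upstream promoter: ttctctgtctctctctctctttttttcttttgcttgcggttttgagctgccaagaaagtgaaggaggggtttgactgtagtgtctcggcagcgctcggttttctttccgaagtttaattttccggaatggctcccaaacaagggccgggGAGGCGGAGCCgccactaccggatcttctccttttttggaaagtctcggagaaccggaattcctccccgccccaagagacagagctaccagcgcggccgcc
Egr4 promoter: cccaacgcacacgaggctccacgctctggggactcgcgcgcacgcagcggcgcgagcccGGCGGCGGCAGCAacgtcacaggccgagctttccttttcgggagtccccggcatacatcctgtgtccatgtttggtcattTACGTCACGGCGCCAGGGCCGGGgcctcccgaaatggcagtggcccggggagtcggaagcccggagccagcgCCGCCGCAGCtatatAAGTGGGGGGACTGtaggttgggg
Egr2 distal region: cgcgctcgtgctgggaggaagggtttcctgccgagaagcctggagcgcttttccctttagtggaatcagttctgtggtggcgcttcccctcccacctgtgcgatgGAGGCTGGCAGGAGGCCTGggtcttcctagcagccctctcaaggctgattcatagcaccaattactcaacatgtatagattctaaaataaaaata
Egr4 downstream region: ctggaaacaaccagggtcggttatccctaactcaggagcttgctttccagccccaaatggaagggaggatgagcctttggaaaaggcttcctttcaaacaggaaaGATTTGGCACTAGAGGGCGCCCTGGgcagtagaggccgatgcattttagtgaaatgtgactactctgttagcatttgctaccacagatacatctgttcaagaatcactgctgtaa

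The site before the main start of Egr2 held a CArG box, the core of an SRF site, followed by a CRE core. The box (chr10:67537797-67537806) was centred at -68 bp from the main start, and the CRE core, TGACG on the other strand, at -53 bp (chr10:67537814-67537818). A footprint of 21 bp in replicate 1 (chr10:67537803-67537823) and one of 20 bp in replicate 2 (chr10:67537804-67537823) covered the whole CRE core and 3 bases of the CArG box in both mice. A CArG box occurred in 1.63% of the 32851 promoter windows of 300 bp in the RefSeq table, and TGACG in 20.8% of them. A further CArG box at -371 bp (chr10:67537494-67537503), within the upstream promoter printed above, was under no footprint in either mouse. In that stretch 1 footprint was shared by the mice, over 11 bases.

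The Egr4 promoter held 3 footprints of replicate 1 that met footprints of replicate 2 within the printed bases, with 60 bases under both. One of them lay on TGACG at -107 bp (chr6:85513694-85513698). A further copy at -175 bp (chr6:85513762-85513766) was under a footprint of replicate 1 alone. The longest run of letters that the footprints of both mice shared between the Egr2 site and the Egr4 promoter was ACGTCACGG, 9 bases in the same orientation. It reached from -56 to -48 bp at Egr2 (chr10:67537813-67537821) and from -110 to -102 bp at Egr4 (chr6:85513691-85513699). This run, chosen after the letters were seen, occurred on either strand in 123 promoter windows (0.374%) and in the central 200 bp of 134 of the 48886 regions called in both mice (0.274%). Among the gene lists below, the immediate early gene Npas4, the kinase gene Map2k1 and the neuronal gene Neurod2 also held it. A match of letters is a description and not a measured binding site.

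Most other motif matches at these genes lay outside the footprints that the mice shared. How often such matches lie under shared footprints over all regions was not counted. The counts under footprints below therefore have no background and are a description only. The search covered both strands of the regions called in both mice, 8 around Egr2 and 7 around Egr4. It used the ETS core CCGGAA, the full CRE TGACGTCA (which contains the CRE core), the Egr site GCGNGGGCG, the AP-1 site TGANTCA, the Sp/KLF site GGGCGG (whose letters can overlap an Egr site), the E-box CAGCTG, the TATA box TATAAA and, by name, the CArG, MEF2 and CTCF consensus. ETS cores were found in 2 regions around Egr2, with 4 matches, and in 1 region around Egr4, none of them under a footprint. In the central 200 bp, 0 of the 15 regions held one, beside 9.76% of all regions called in both mice. Of 9 Sp/KLF matches around Egr2, 1 was under footprints of both mice, in the region at -25449 bp, and of 8 around Egr4 none was. A Sp/KLF match lay in the central 200 bp of 5 of the 8 regions around Egr2 and 1 of the 7 around Egr4, beside 27.5% of all regions. The Egr factors' own site was matched once, at the start of the neighbouring gene Fbxo41 (chr6:85502866-85502874), under no footprint and outside the central 200 bp, where 4.04% of all regions held one. No full CRE, MEF2 or CTCF consensus and no TATAAA was matched in these 15 regions. Other forms of a TATA box were not searched. The printed Egr4 promoter holds the letters TATATAAG shortly before the start, which TATAAA does not match.

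The region past the 3′ end of Egr4 carried the longest footprint shared by the mice in the sequences above, with 25 bases under both. Under it, 11 of the 12 positions of the CTCF consensus matched, a near match looked for after the letters were seen. In the central 200 bp of all regions, 21.8% held a match at 11 or more positions and 8.01% a full match. Base composition set this region apart from the promoter. It had 47.7% GC and a CpG observed-to-expected ratio of 0.241, against 68.3% and 0.888 at the Egr4 promoter peak and 61.7% and 0.878 at the main start of Egr2. The distal Egr2 region had 53% GC and a ratio of 0.499. The median GC content of the central 200 bp of all regions was 55.5%.

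A promoter peak was present in both mice at each of the 4 Egr genes, beside 61% of protein-coding genes. A promoter peak is the highest peak within 1 kb of any annotated start of the gene, in a region called in both mice, meaning that a peak of one mouse overlapped a peak of the other by at least 1 bp. Its height is the authors' signal value, whose normalization is not stated, so heights were ranked within each mouse among the 13384 coding genes with such a peak.

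Egr1 (chr18:34859823-34864984, plus strand) had promoter heights of 9.24 in replicate 1 and 5.33 in replicate 2, above 94.4% and 86.5% of the genes with a promoter peak. Egr3 (chr14:70077203-70082614, plus strand) had 5.63 and 2.85, above 69.6% and 48.2%. Egr4 (chr6:85511121-85513589, minus strand) had 4.21 and 2.86, above 51.4% and 48.4%. Egr2 (chr10:67535475-67542188, plus strand) had 2.82 and 2.75, above 32.1% and 46.5%. In rank, Egr1 stood above the other 3 genes in both mice, with no overlap, and Egr2 below them, also with no overlap. The ranks of Egr3 and Egr4 overlapped between the mice, so those genes were not separated. In replicate 2 the heights of Egr2, Egr3 and Egr4 lay within 2.75 to 2.86.

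**Figure D1:**
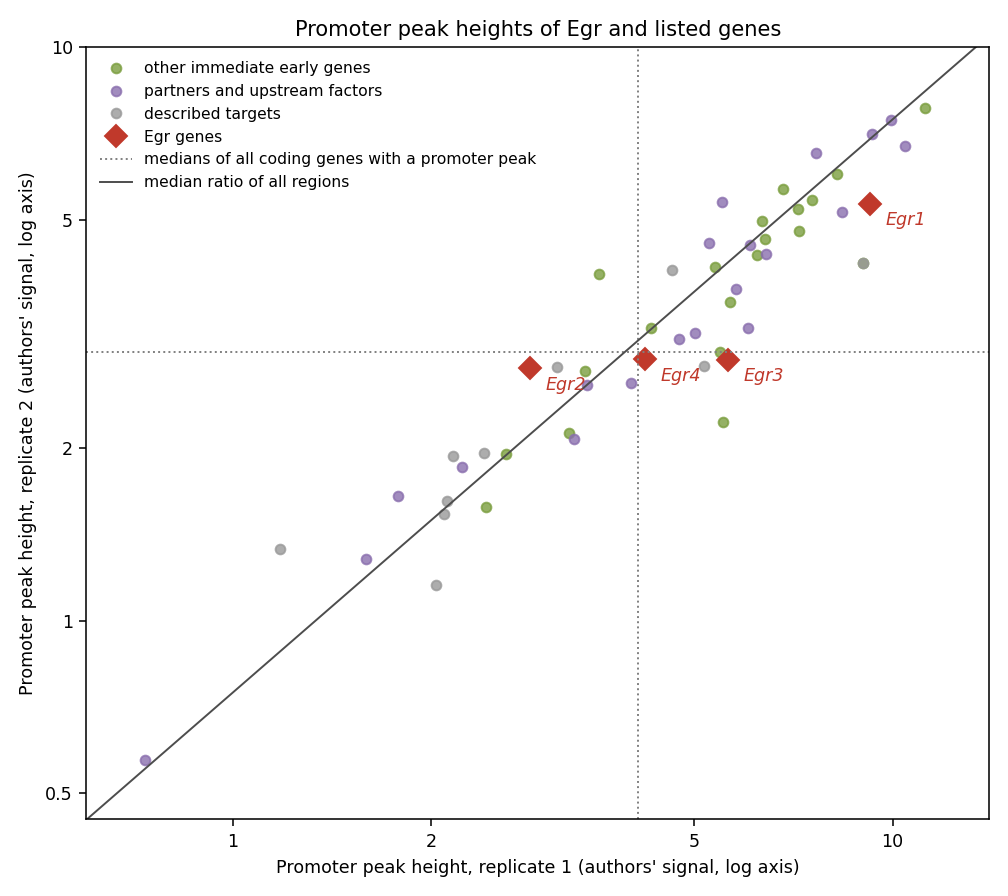
Highest promoter peak of each gene in replicate 1 (x axis) and replicate 2 (y axis), in the authors' signal units on log axes. Diamonds are the Egr genes, circles the genes of 3 lists, dotted lines the medians of all coding genes with a promoter peak (4.11 and 2.95), and the solid line the median ratio of all regions; Egr2 lies above that line and Egr1, Egr3 and Egr4 below it.

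The order changed when only the surroundings of the main start were counted. Within 250 bp of the main start, the highest peak was 7.24 and 5.33 at Egr1, 4.21 and 2.86 at Egr4, 2.82 and 2.75 at Egr2, and 0.973 and 0.959 at Egr3, an order that was the same in both mice although Egr4 and Egr2 nearly tied in replicate 2. At Egr3 the highest peaks sat upstream of the start. The one at -434 bp (chr14:70076761-70077000) reached 5.63 and 2.85, and a higher one at -2244 bp (chr14:70074901-70075240) reached 6.21 and 4.14, above 94.9% and 94.6% of all peaks. This second region lies outside the 1 kb promoter limit, so the promoter rank of Egr3 does not contain it. The peak at -434 bp ended at -314 bp in both mice, just outside the 250 bp limit. Egr3 has another annotated start at -111 bp, closer to that peak. The place of Egr3 in the order near the main start therefore rests on the limit and start chosen, which were not varied. The Egr1 promoter had its peaks at 2 places of similar height. The region at the upstream annotated start (centre -1237 bp, chr18:34859821-34860120) had 9.24 and 5.31, and the region at the main start (centre -67 bp, chr18:34861001-34861280) had 7.24 and 5.33. The first was the higher in replicate 1, and in replicate 2 they were nearly equal.

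The deposited cut-rate file, which lists false discovery rates (FDR), gave the width of the open stretch. Within 1 kb on each side of the main start, 1667 bp in replicate 1 and 1550 bp in replicate 2 lay under an FDR of 0.001 at Egr1. At Egr2 the widths were 1853 and 1384 bp, at Egr3 733 and 1435 bp, and at Egr4 1057 and 736 bp. The median of coding genes, taken at the best start of each, was 530 bp in either mouse. The widths of Egr1 and Egr2 overlapped between the mice, although the highest promoter peak of Egr2 was lower than that of Egr1 in both. At the Egr2 region at -249 bp (height 2.82 in replicate 1) the lowest rate was 2.48e-232 in replicate 1 and 3.91e-33 in replicate 2. At the Egr1 region at -1237 bp (height 9.24 in replicate 1) it was 5.26e-44 and 3.09e-28. The rates did not follow peak height there, and the reason was not tested. Egr3 was the gene whose width differed most between the mice. From just before its main start to about 3300 bp, the rates of replicate 2 under 0.05 ran without a break. Those of replicate 1 were broken into patches there. Taken at its best start, Egr3 had 1057 and 1980 bp, wider than 79.6% and 99.3% of coding genes.

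**Figure D2:**
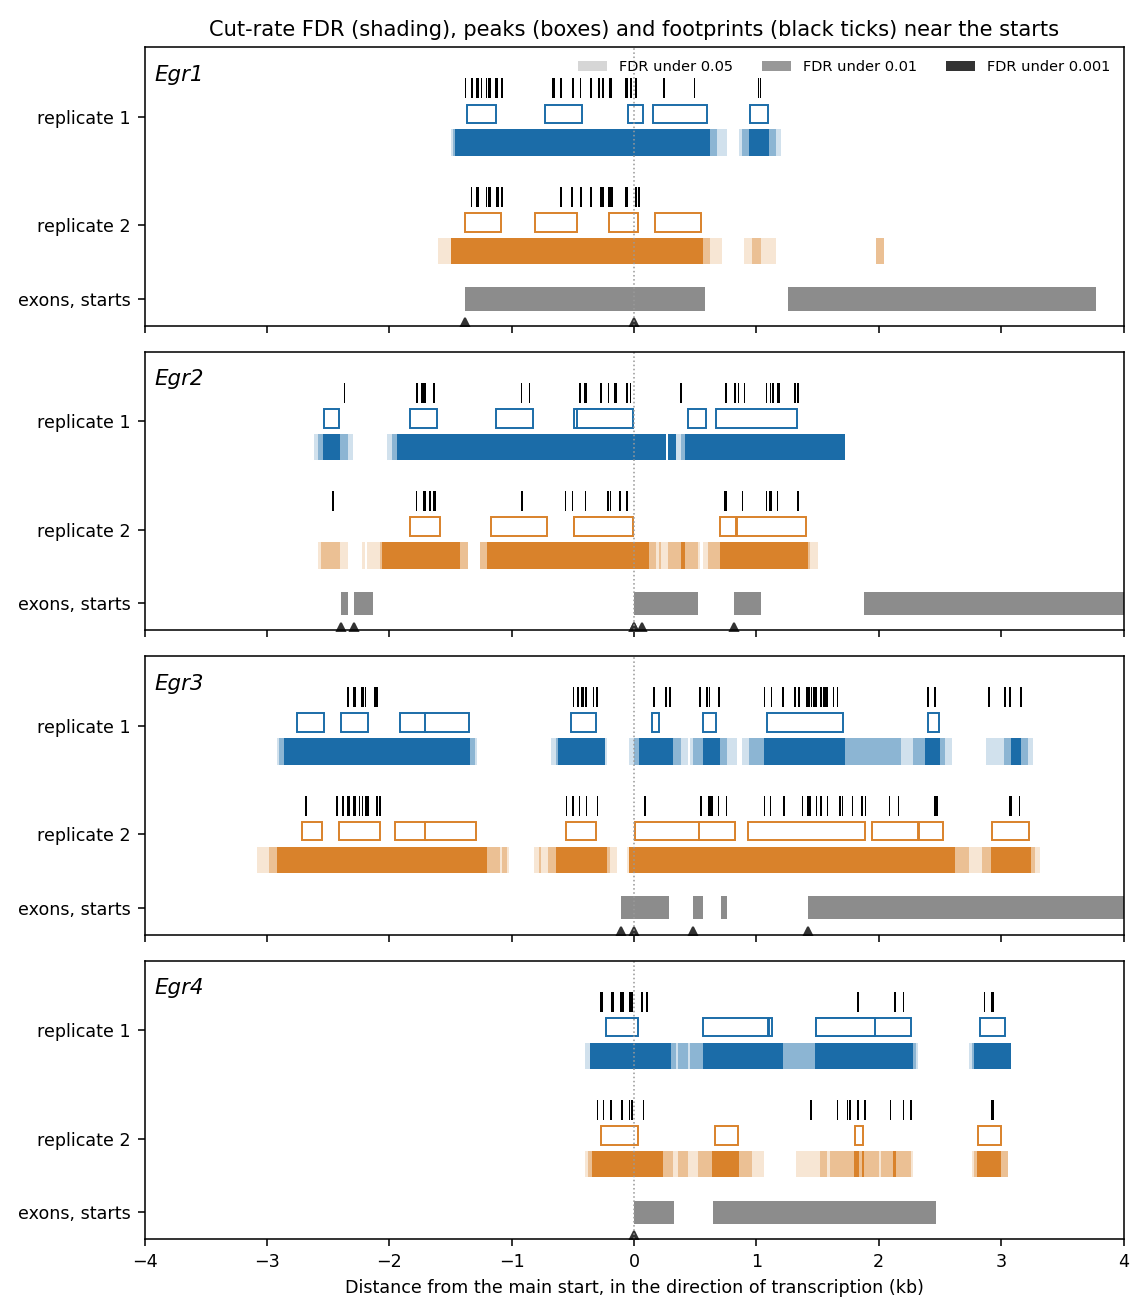
Positions near the main start of each Egr gene, as distance in kb in the direction of transcription, for replicate 1 (blue) and replicate 2 (orange). Shading shows FDR of the cut rate under 0.05, 0.01 and 0.001, open boxes peaks, black ticks footprints, grey boxes exons and triangles annotated starts; the open stretch at Egr3 is interrupted just upstream of the main start in both mice.

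The windows of the 4 genes held 59 regions, of which 41 (69.5%) were called in both mice, while 9 were called in each mouse alone. Regions of 1 mouse alone had heights of 0.48 to 1.57 in replicate 1, with a median of 0.797, and of 0.309 to 1.75 in replicate 2, with a median of 0.679, beside medians of 1.17 and 0.909 over all peaks. The one at 1.75 lay near the start of Ado, in the Egr2 window. All of its 180 bp lay under an FDR of 0.001 in replicate 1 too, although no peak was called there. Others, such as that at -4827 bp of Egr1, had no bases under that rate in the other mouse. Of the 55 Egr peaks of replicate 1, 46 (83.6%, exact 95% interval 71.2% to 92.2%) met a peak of replicate 2, beside 74.6% of all peaks. Of the 54 of replicate 2, 45 (83.3%, 70.7% to 92.1%) met one of replicate 1, beside 74.3%. The intervals cover counting error only, and the shares were not matched for peak height. With the peak lists used here each holds the value for all peaks, but with the longer list of each library neither does. Of the 41 regions, 14 lay at a start of their own gene, 7 at a start of another gene, 1 in an exon of its own gene and 19 between genes. Above the median peak height of both lists stood 27 of 41 (65.9%), beside 57.5% of all regions called in both mice. When taken as the median, the 41 regions had heights of 1.65 and 1.44, beside 1.59 and 1.16 for all regions.

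**Figure D3:**
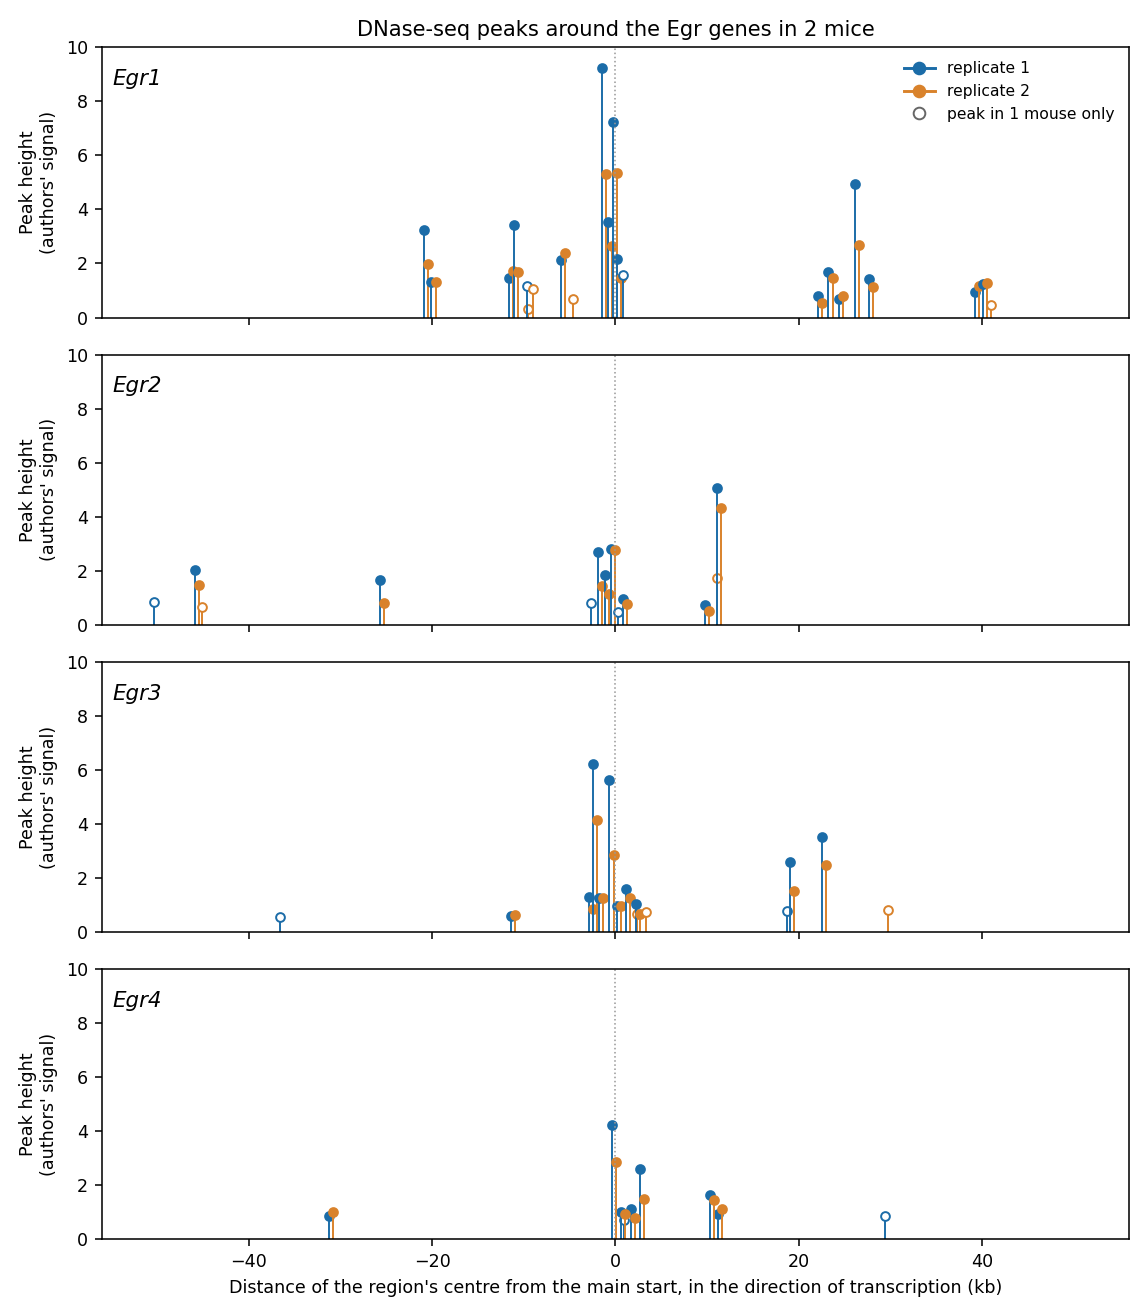
Height of the highest peak in each region (y axis, authors' signal units) against the distance of the region from the main start (x axis, kb) for each Egr gene. Blue is replicate 1, orange replicate 2, and open circles are regions with a peak in 1 mouse only; Egr1 has groups of regions on both sides of the gene, while most regions of Egr3 lie within 5 kb of it.

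Of the 4 genes, Egr1 had the most regions with 50 kb flanks, and with 10 kb flanks it tied with Egr3 at 7 each. Its window held 16 regions called in both mice, more than 97.8% of coding genes and more than 98.2% of those shorter than 10 kb, whose median was 3. Of these 16, 4 lay at its own starts, 2 at the start of Reep2 and 10 between genes. Upstream between genes, 3 regions were called in both mice, at -10897 bp (chr18:34850201-34850420, 3.42 and 1.70), at -11347 bp (1.47 and 1.74) and at -5755 bp (chr18:34855221-34855684, 2.12 and 2.37). The regions at -11347 and -5755 bp were higher in replicate 2 and the one at -10897 bp in replicate 1, so these 3 did not share a direction, and the highest of them differed between the mice. Downstream, no region was called in either mouse between 1018 bp and 22308 bp. Beyond that gap a group of 5 regions in both mice reached from 22308 to 27853 bp, with its highest at 26333 bp (chr18:34887421-34887660, 4.93 and 2.69), above 90.95% and 88.1% of all peaks. Another 2 lay at 39463 bp (0.942 and 1.18) and 40273 bp (1.25 and 1.28). The nearest start of another coding gene to these 2 and to the region at 26333 bp was that of Etf1, 44467 bp from the latter.

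Egr2 had 8 regions called in both mice, more than 73.5% of coding genes. The highest was not at Egr2: it lay at 11301 bp, at the start of Ado, which encodes a thiol dioxygenase (chr10:67548941-67549400, 5.08 and 4.31). At its own starts Egr2 had 4 regions. The one that ends just before the main start (centre -249 bp, chr10:67537381-67537860) had 2.82 and 2.75, that at -1709 bp (chr10:67536041-67536280) 2.68 and 1.45, that at -939 bp 1.84 and 1.14, and that at 1038 bp, inside the gene, 0.955 and 0.785. Between genes it had the region at -45609 bp printed above (2.02 and 1.47) and one at -25449 bp (chr10:67512321-67512520, 1.65 and 0.802). The latter had a ratio between the mice of -0.62, the lowest of the 41.

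Egr3 had 10 regions called in both mice, more than 84.6% of coding genes, and they crowded around the gene. Within the gene body and 5 kb on each side it had 7, more than 99.4% of coding genes under 10 kb, whose median was 1. Egr1 had 5 in that span, more than 97.2% of those genes, and Egr2 and Egr4 had 4 each, more than 93.8%. The 5 kb span was chosen after the data were seen. Inside the gene, the region at 416 bp had heights of 0.973 and 0.959 over 820 bp, that at 1406 bp 1.59 and 1.27 over 960 bp, and that at 2428 bp 1.05 and 0.651 over 197 bp. Further out, Egr3 had a region between genes at 19236 bp (chr14:70096441-70096660, 2.60 and 1.51). Another at 22766 bp sat at the start of Bin3, a gene for a membrane-shaping adaptor protein (chr14:70099961-70100200, 3.53 and 2.47).

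Egr4, the shortest of the genes at 2469 bp, had 7 regions called in both mice, more than 66.0% of coding genes. Its promoter region (centre -121 bp, chr6:85513561-85513860) had 4.21 and 2.86. The next highest was the region past its 3′ end, printed above (2919 bp, 2.60 and 1.503). A broad region of 775 bp in its last exon (centre 1876 bp) had 1.11 and 0.791, and one at 831 bp had 1.03 and 0.937. The remaining 3 were 2 at the start of Fbxo41, an F-box protein gene (10559 bp, 1.64 and 1.44; 11380 bp, 0.949 and 1.12), and 1 upstream at -31071 bp (0.863 and 0.993).

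Footprints in Egr regions were somewhat less dense than in all regions, and most of those of each mouse met one of the other. The 41 regions held 178 footprints in replicate 1 and 174 in replicate 2, or 1.17 and 1.14 per 100 bp, beside 1.34 and 1.29 in all regions called in both mice. That comparison was not matched for height or width. Over 10 equal groups of all regions by height, density went from 0.925 and 0.884 in the lowest to 2.07 and 2.04 in the highest. Of the 178, 101 (56.7%, exact 95% interval 49.1% to 64.1%) met a footprint of replicate 2, beside 58.2%. Of the 174, 102 (58.6%, 50.9% to 66.0%) met one of replicate 1, beside 62.8%. Both intervals hold the share for all regions. A footprint of each mouse was present in 35 of 41 regions (85.4%), beside 93.2% of all regions called in both mice. The other 6 were those at 373 and 22308 bp of Egr1, at 10021 bp of Egr2, at -2644 and -1624 bp of Egr3 and at 831 bp of Egr4.

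Over all regions called in both mice, split by height into 10 equal groups, the median number of footprints went from 2 in the lowest group to 6 in the highest in each mouse. The region at the start of Ado, the highest of the Egr2 window, also had its most footprints, 12 and 10, with 9 of the 12 met in the other mouse. The broad region at 1406 bp of Egr3 had 18 footprints in replicate 1 and 13 in replicate 2, the most of the 41, with heights of 1.59 and 1.27 over 960 bp. The upstream Egr1 promoter region at -1237 bp had 8 and 6, with 6 of the 8 met in the other mouse, and the region at -67 bp had 5 in each mouse. At Egr3 the region at -2244 bp had 6 and 9, with 5 of the 6 met, and that at -434 bp had 7 and 4, with 2 of the 7 met.

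**Figure D4:**
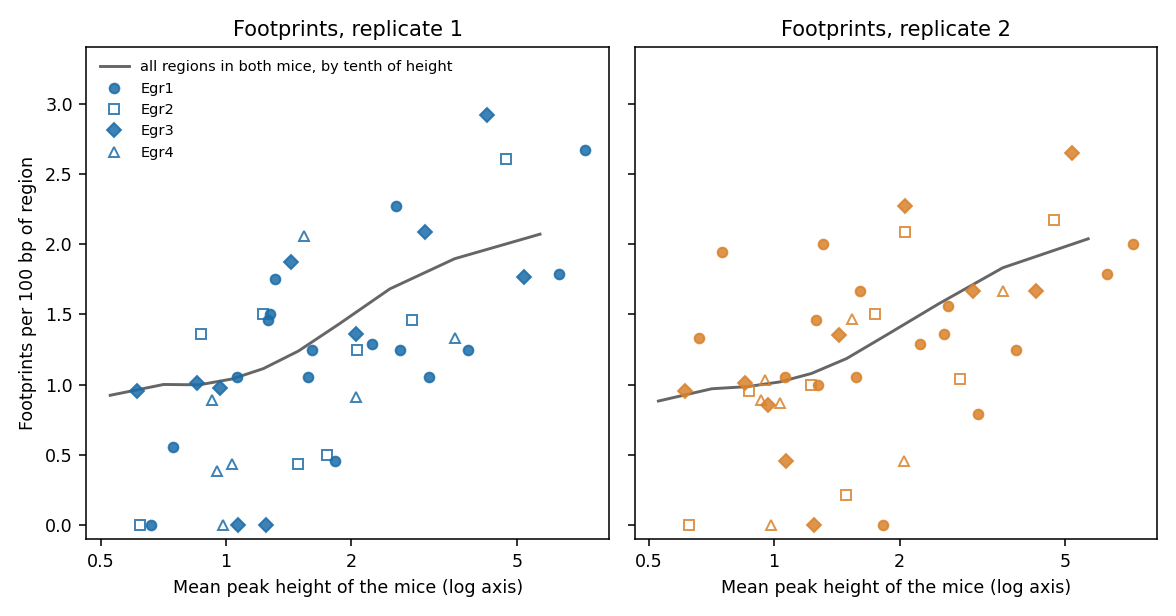
Footprints per 100 bp (y axis) against the mean peak height of the mice (x axis, log axis) for the 41 Egr regions called in both mice, in replicate 1 (left) and replicate 2 (right). The line gives all regions called in both mice, ordered by height and split into 10 equal groups; Egr regions scatter on both sides of it in both mice.

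The mice were then compared region by region. Over the 48886 regions the median height ratio of replicate 2 to replicate 1 was 0.749, and ratios are given as log2 of replicate 2 over replicate 1 after that median was taken out. Over all regions these ratios had an SD of 0.471, and over the promoters of coding genes 0.325. The 41 Egr regions ranged from -0.62 to 0.74 with a median of -0.02, and 30 lay within 1 SD of 0. Promoter ratios were taken between the highest promoter peak of each mouse. They were -0.57 at Egr3, -0.37 at Egr1, -0.14 at Egr4 and 0.38 at Egr2, beside a median of -0.06 over coding genes. At Egr1 the highest peaks of the mice lay in different regions. Within single regions the ratio was -0.38 at -1237 bp and -0.02 at -67 bp. Egr3 and Egr2 lay more than 1 SD of promoters from the median over coding genes, on opposite sides of it, and Egr1 and Egr4 lay within 1 SD. These ratios describe the highest peaks only. The other own-start regions of Egr3 had 0.40 at 416 bp, 0.09 at 1406 bp and -0.28 at 2428 bp. Those of Egr2 had -0.47 at -1709 bp, -0.28 at -939 bp and 0.14 at 1038 bp. The width under an FDR of 0.001 near the main start of Egr3 was larger in replicate 2 (733 and 1435 bp). High regions had lower ratios than low ones in general. After regions were split by height into 10 equal groups and the median ratio of each group was taken out, 17 of 41 Egr regions were below 0, against 22 of 41 before, beside 49.99% of all regions. With 1 library per mouse these ratios cannot be tested.

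The promoters of genes that act with the Egr factors were mostly open. Of 21 partners and upstream factors, 20 had a promoter peak in both mice (95.2%, beside 61% of coding genes). Their median heights were 5.39 and 3.51, beside 4.11 and 2.95 over all coding genes with one. The highest were Map2k1, a MAP kinase kinase gene (9.94 and 7.47), Creb1, which encodes a CRE-binding factor (10.4 and 6.74), and Mrtfa, an SRF coactivator gene (9.29 and 7.07). Wt1, whose zinc fingers resemble those of the Egr proteins, had none. The corepressor genes differed from each other, with 3.29 and 2.07 at Nab2 and 1.59 and 1.28 at Nab1, and Srf itself had 5.51 and 5.37.

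The other immediate early genes were all open too. Each of the 20 had a peak called at its promoter in both mice, beside 61% of coding genes, with median heights of 5.95 and 4.17, above the Egr medians of 4.92 and 2.85. The highest were Jun (11.2 and 7.85) and Jund (8.24 and 6.02), both AP-1 subunit genes, and Arc, which encodes a synaptic capsid-like protein (9.005 and 4.20). Arc is also among the described targets. Promoter ratios between the mice were below 0 for 13 of the 20, with a median of -0.05, beside 7654 of the 13384 coding genes with a promoter peak and their median of -0.06. The lowest of them, named after its value was seen, was -0.90 at Npas4, an activity-induced transcription factor gene.

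Of 12 genes described as Egr targets in neurons and Schwann cells, 10 had a promoter peak in both mice (83.3%, beside 61% of coding genes). Their median heights, 2.28 and 1.95, were below those of all coding genes with one. Among the highest were Arc and Cdk5r1, a neuronal kinase activator gene (5.18 and 2.78). Mag, a myelin gene, and Th, the first enzyme of catecholamine synthesis, had none. Lists and the genes in them were chosen for their known roles, and their counts describe these libraries only.

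By promoter rank in the mice, the coding genes closest to Egr1 were Fgd6, Vezt and Dhx8, within a summed difference of 0.209 percentage points over both libraries. Fgd6 and Vezt start next to each other in opposite directions and had identical heights in both mice. Closest to Egr2 were Snx27, Cox7c and Smpd1, to Egr3 Pmpcb, Spats2 and Ift46, and to Egr4 Fancc, Sfswap and Gars, all within 1.06 points. With 2 libraries and 13384 genes, likeness in rank is a description of position in the list.

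Markers of cell types were used to check the labelled tissue. A promoter peak called in both mice was found at all 6 markers of excitatory neurons and at 3 of 4 astrocyte markers, 2 of 5 of the oligodendrocyte lineage and 1 of 3 of interneurons. None of 4 microglial, 3 vessel or 4 other-organ markers had one. Over all coding genes the share was 61%, so the small astrocyte, oligodendrocyte and interneuron counts cannot be told from it. The excitatory, microglial, vessel and other-organ counts are also small and were not tested against it. The excitatory markers had median promoter heights of 2.47 and 1.67, beside 4.11 and 2.95 over all coding genes with such a peak. Replicate 1 had 69208 peaks and 318728 footprints in all, and replicate 2 had 69128 and 317176. The files used here hold no read totals, so depth is unknown.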

How the data were processed

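DNase-seq of left cerebral cortex from 2 mice, 1 library each, was analysed from the deposited lists on mm10. Peaks, footprints and cut rates were made per library, per the deposited read-me text, with the aligner and callers not given in the sources used here. Peak heights are a signal value of the authors with no stated normalization. The deposited footprint score is 0.01 in every entry, so only positions were used. The deposited p-value column is an FDR of the cut rate and lists positions under 0.05 only.

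Of the 2 peak lists per library, the shorter was used; the longer list and other overlaps, flanks and windows were alternatives. Peaks of the mice were merged when they overlapped by at least 1 bp. Starts and genes came from GENCODE M21, sequences from the GRCm38 genome and from the RefSeq promoter table, whose 32851 windows all equalled the genome. That table held 2 of the 4 genes, Egr2 and Egr4, and sequence was not analysed here for Egr1 and Egr3, nor were proteins. Mrtfa and Mrtfb had been listed under the older names Mkl1 and Mkl2. The main start is the start of Egr1-202, Egr2-201, Egr3-204 and Egr4-201. Members, lists and motifs were chosen with earlier results of these data known. The text names 3 genes of each list, those of highest mean height at the promoter, plus at most 3 lacking a promoter peak, and any other gene was named after its values were seen. A gene that this rule takes is not reported here. Shares have exact Clopper-Pearson intervals. Scripts ran in Python 3.11.15 with numpy 2.4.6, scipy 1.17.1, pysam 0.24.0 and samtools 1.23.1, and the merging and counting steps were tested on simulated data.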

Additional observations from a re-analysis of the deposited data

How the results depend on the processing

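All 4 Egr genes kept a promoter peak in the longer lists, with a 500 bp window and in either mouse alone. The 41 regions called in both mice became 26 with 10 kb flanks, 20 with 5 kb flanks (chosen after the data were seen) and 27 above the median height in both lists. They numbered 57 in the longer lists, 61 with 100 kb flanks, 34 without starts of other genes, 34 when peaks had to overlap by 50% of each, and 50 in either mouse alone. When 50% of each peak had to overlap, 67.3% of the Egr peaks of replicate 1 and 66.7% of those of replicate 2 met the other mouse. Over all peaks the same setting gave 60.5% and 60.6%. In the longer lists, 85.7% (exact 95% interval 75.9% to 92.6%) of the Egr peaks of replicate 1 met the other mouse, beside 72.3% of all peaks. For replicate 2 it was 84.2% (74.0% to 91.6%), beside 71.2%. There the intervals lay above the values for all peaks, and they cover counting error only. These shares too were not matched for peak height. Of the footprints, 101 in replicate 1 and 102 in replicate 2 remained when one of the other mouse had to overlap. In the peak interval at the main start of Egr2, 4 kinds of motif were matched in place of the 2 in its promoter window. The fewer regions and footprints follow from the narrower definitions. No paired analysis was possible because both libraries belong to 1 group. With 1 library per mouse and unknown depth, a peak missing in 1 mouse was not detected, which does not show that the site was closed.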

Other observations

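In the longer lists, the window of Egr1 had 20 regions called in both mice, that of Egr3 15, and those of Egr2 and Egr4 11 each. With flanks of 100 kb the shorter lists gave 22 regions for Egr1, 18 for Egr3, 11 for Egr4 and 10 for Egr2. Egr1 had the most regions under these settings. With 10 kb flanks Egr1 and Egr3 tied at 7, and with 5 kb flanks Egr3 had 7 and Egr1 had 5.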
